A study of Mus musculus with 45 samples.

Results

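The subject is 9 of the 19432 genes listed in the deposited tables, followed through mouse hearts that transiently overexpressed ERBB2 in their cardiomyocytes. They were chosen by their normalized counts, for the largest differences between OE and WT sham hearts at T1, during the overexpression: F2rl2, Frem1, Sprr1a and Serinc2 were far higher in OE hearts, and Efnb3, Clcn1, Lrrc15, Pfkfb1 and Lrtm1 far lower. That contrast is therefore given as a description without a test. The tests concern MI hearts at T1 and the hearts collected 2 weeks (T2) and 4 weeks (T3) after the overexpression. The rule of choice did not use these hearts, but earlier results of these data were known, the MI difference of Serinc2 at T1 among them. Bulk poly(A) RNA was sequenced from 45 perfused, frozen and powdered whole hearts in 12 groups. OE denotes hearts carrying the ERBB2 transgene and WT those labelled wild type, MI denotes the injured hearts, in a study whose title speaks of ischemic injury, and sham the uninjured ones. At T1 (labelled Dediff) there were 4 OE MI, 4 WT MI, 4 OE sham and 4 WT sham hearts. At T2 (labelled Intermediate) there were 3 OE MI, 3 WT MI, 4 OE sham and 4 WT sham hearts, and at T3 (labelled Rediff) 4 OE MI, 4 WT MI, 3 OE sham and 4 WT sham hearts. The strain, the age, the promoter and Cre lines and the time of injury relative to the overexpression are stated in none of the sources used here.

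ERBB2 is a kinase receptor of the cell surface that has no ligand of its own and, as the partner of its relatives in cardiomyocytes, relays neuregulin signals into growth and survival pathways. Strong ERBB2 activity in adult mouse cardiomyocytes is known to make them dedifferentiate, with loss of adult contractile and metabolic gene expression and a gain of cytoskeletal and matrix genes. Among the genes higher in OE, F2rl2 encodes PAR3, a thrombin-cleaved receptor that in mouse platelets assists PAR4. Frem1 encodes a matrix protein that works with FRAS1 and FREM2 to anchor epithelia to basement membranes, and Sprr1a encodes a small proline-rich precursor of the cornified envelope that is also induced in stressed cardiomyocytes and injured neurons. Serinc2 belongs to the serine incorporator family of membrane proteins. Among the genes lower in OE, Efnb3 encodes ephrin-B3, a membrane-bound ligand of Eph receptors known from axon guidance. Clcn1 encodes ClC-1, the chloride channel that stabilises the resting potential of skeletal muscle, and Pfkfb1 encodes an enzyme that makes and breaks down fructose 2,6-bisphosphate, an activator of phosphofructokinase. Lrrc15 and Lrtm1 encode leucine-rich repeat membrane proteins, of which Lrrc15 is best known from activated fibroblasts.

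All 9 are protein-coding genes of GRCm38. F2rl2 lies at chr13:95696853-95702739 (plus strand) inside the span of Iqgap2 without sharing exon bases, Frem1 at chr4:82897920-83052339 (minus strand), Sprr1a at chr3:92483952-92485895 (minus strand) and Serinc2 at chr4:130253495-130279205 (minus strand). Efnb3 lies at chr11:69554092-69560205 (minus strand), Clcn1 at chr6:42286685-42315756 (plus strand), Lrrc15 at chr16:30269302-30283256 (minus strand), Pfkfb1 at chrX:150588229-150643878 (plus strand) and Lrtm1 at chr14:29018208-29033645 (plus strand), the last inside the span of Cacna2d3. Clcn1 shares 445 exon bases with Fam131b and Pfkfb1 shares 123 with Apex2, each on the opposite strand, so reads in these stretches cannot be assigned with certainty where counting ignored the strand, which the sources used here do not state.

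Promoter windows of 300 bases, from 250 before to 50 after an annotated start (RefSeq, GRCm38.p6), were at hand for 8 of the 9 genes, 14 windows in all. Efnb3 had no entry. The 5 windows below are shown because they hold AP-1 matches or, in Clcn1, overlapping TATA and MEF2 matches. Capitals mark matches to MEF2, the TATA box and AP-1, the last spelled TGANTCA, each searched on both strands.
F2rl2 (chr13:95696670-95696969, plus strand): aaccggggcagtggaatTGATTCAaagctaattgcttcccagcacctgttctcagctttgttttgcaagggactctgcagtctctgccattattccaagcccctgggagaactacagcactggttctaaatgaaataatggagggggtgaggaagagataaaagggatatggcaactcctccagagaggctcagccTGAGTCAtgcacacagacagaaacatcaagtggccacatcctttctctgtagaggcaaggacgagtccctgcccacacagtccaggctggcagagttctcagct
Sprr1a (chr3:92485832-92486131, minus strand): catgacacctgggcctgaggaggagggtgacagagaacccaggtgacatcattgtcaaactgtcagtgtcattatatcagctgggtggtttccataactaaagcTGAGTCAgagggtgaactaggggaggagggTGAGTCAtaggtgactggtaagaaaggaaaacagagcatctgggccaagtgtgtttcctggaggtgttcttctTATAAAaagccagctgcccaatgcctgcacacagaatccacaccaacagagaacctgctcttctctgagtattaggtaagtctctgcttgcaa
Clcn1 (chr6:42286435-42286734, plus strand): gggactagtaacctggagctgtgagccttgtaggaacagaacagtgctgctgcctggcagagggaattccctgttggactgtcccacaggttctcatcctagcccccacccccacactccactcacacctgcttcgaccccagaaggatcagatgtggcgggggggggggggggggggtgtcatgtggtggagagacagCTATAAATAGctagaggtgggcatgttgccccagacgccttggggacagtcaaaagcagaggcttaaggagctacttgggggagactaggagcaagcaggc
Lrrc15 (chr16:30283205-30283504, minus strand): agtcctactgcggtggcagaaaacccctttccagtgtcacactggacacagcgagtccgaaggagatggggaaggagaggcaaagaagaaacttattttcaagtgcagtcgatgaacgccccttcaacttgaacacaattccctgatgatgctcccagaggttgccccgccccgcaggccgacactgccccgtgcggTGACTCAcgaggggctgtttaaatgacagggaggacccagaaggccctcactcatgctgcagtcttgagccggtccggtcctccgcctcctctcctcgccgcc
Lrtm1 (chr14:29017958-29018257, plus strand): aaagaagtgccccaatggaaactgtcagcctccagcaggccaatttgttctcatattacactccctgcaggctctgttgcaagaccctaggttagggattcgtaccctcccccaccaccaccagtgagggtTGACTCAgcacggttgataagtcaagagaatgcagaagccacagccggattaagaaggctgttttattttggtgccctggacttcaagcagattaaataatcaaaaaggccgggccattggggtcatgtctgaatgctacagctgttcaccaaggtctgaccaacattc
AP-1 letters stood in 4 of the 14 windows, those of F2rl2, Sprr1a, Lrrc15 and Lrtm1, against 7.81% of all 32851 mouse windows of this length. F2rl2 and Sprr1a were higher and Lrrc15 and Lrtm1 lower in OE hearts. In F2rl2 the matches began 233 and 54 bases before the start, and in Sprr1a 146 and 116 bases before it. A TATA box (TATAAA) stood in 3 windows (Sprr1a, Clcn1 and 1 of the 4 of Pfkfb1), against 13.6% of all windows. MEF2 matches stood in 2 windows (Clcn1 and Pfkfb1), against 3.19% of all, and in Clcn1 the MEF2 match overlapped the TATA box. The ETS letters CCGGAAG stood in 2 windows (Frem1 and Pfkfb1), against 8.86% of all, and E-box letters (CANNTG) in all 14, against 72.3% of all. M-CAT (GGAATG) and CArG matches, found in 14.7% and 1.63% of all windows, were in none of the 14. These are matches of letters, not measured binding sites.

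Values are the authors' normalized counts, which rest on 14199741 to 19015856 reads per library counted to genes. The T1 table and the joint T2 and T3 table were normalized separately, so levels are compared within a table only. Erbb2 checked the labels: it had 1868, 769.7, 2436 and 1715 normalized counts in the OE sham hearts and 769, 1065, 1739 and 2401 in the OE MI hearts at T1, against 200.7 to 303 in the 8 WT hearts. Erbb2 remained slightly higher in OE sham hearts at T2, at 271 to 308 against 172 to 218 in WT sham hearts. Its values also lay above the WT values in OE MI hearts at T2 (268 to 325 against 227 to 248.5) and in OE sham hearts at T3 (235 to 240 against 174 to 222). Neither of these differences passed in limma (log2 difference 0.28, adjusted p = 0.207, and 0.22, adjusted p = 0.141). In MI hearts at T3 the groups overlapped (207 to 247 in OE against 185 to 219 in WT). None of the 10 cardiomyocyte and 10 fibroblast markers was at 0 in any group. At T1 the summed cardiomyocyte markers ranged from 786529 to 931947 in OE sham hearts, against 1274801 to 1465617 in WT sham hearts, and the summed fibroblast markers from 125330.1 to 151395 against 28801 to 32325. In whole-heart RNA, fewer cells of a type and less RNA per cell cannot be told apart, and the part of these shifts in the results was not tested. The labels number the hearts of a group and give no other source, and p-values therefore describe only how these hearts varied.

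At T1 the 4 genes higher in OE hearts were low in WT sham hearts, and F2rl2 had no read in 3 of those 4 hearts. F2rl2 had 643, 362, 840.5 and 977 normalized counts in the 4 OE sham hearts, against 6.41, 0, 0 and 0 in the 4 WT sham hearts. Frem1 had 965, 649.6, 717 and 396 in OE sham hearts, against 14.1, 11.4, 11.4 and 8.48 in WT sham hearts. For both genes every OE sham heart lay far above every WT sham heart, and the 6.41 of F2rl2 in WT sham replicate 1 came from 5 reads. Sprr1a had 524, 510.1, 383 and 399.9 in OE sham hearts, against 85.96, 5.07, 6.82 and 6.36 in WT sham hearts. Serinc2 had 489, 315, 421 and 366 in OE sham hearts, against 37.2, 31.7, 10.2 and 4.24 in WT sham hearts. WT sham replicate 1 was the highest of its group for F2rl2, Sprr1a and Serinc2 and stood apart most for Sprr1a. That library also had the highest sum over the 8 keratinocyte and epithelial markers, of which 6 are listed and none was at 0 in this group: the sum was 1129, against 68.2 to 99.6 in the other 3 WT sham hearts. Its sum over the 10 skeletal muscle markers was 5486, against 633 to 972 in the other 3. Their part in its Sprr1a value was not tested, and the OE sham hearts, all higher in Sprr1a, had keratinocyte and epithelial sums of 80.4 to 102.

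The 5 genes lower in OE hearts were well expressed in WT sham hearts. Lrtm1 had 326, 581, 560.0 and 826 normalized counts in OE sham hearts, against 9798, 9195, 6883 and 8551 in WT sham hearts. Efnb3 had 43.1, 114, 75.6 and 87.98 in OE sham hearts, against 2952, 4056, 1081 and 1496 in WT sham hearts. Efnb3 varied among WT sham hearts more than the others did, yet its lowest WT sham heart stood above every OE sham heart. Clcn1 had 8.09, 14.8, 24.9 and 14.4 in OE sham hearts, against 366, 361, 215 and 301 in WT sham hearts. Lrrc15 had 44.04, 33.3, 46.9 and 47.2 in OE sham hearts, against 849, 885, 747 and 394 in WT sham hearts. Pfkfb1 had 22.5, 24.95, 22.02 and 40.8 in OE sham hearts, against 504, 622, 281 and 407 in WT sham hearts. None of the 5 genes overlapped between the groups, which is what they were chosen for. Per kilobase of exon, the mean level in WT sham hearts was 1084 normalized counts for Lrtm1, 753 for Efnb3, 135 for Lrrc15, 113 for Pfkfb1 and 57.2 for Clcn1. On the same per-kilobase scale the mean level in OE sham hearts was 564 for Sprr1a, 282 for F2rl2, 172 for Serinc2 and 48.8 for Frem1.

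Expressed as log2(normalized count + 1), a scale that makes changes of low genes look smaller than they are, the differences that chose the genes were 8.65 for F2rl2, 5.74 for Frem1, 5.09 for Sprr1a and 4.58 for Serinc2. They were -4.78 for Efnb3, -4.30 for Clcn1, -3.98 for Lrrc15, -3.98 for Pfkfb1 and -3.97 for Lrtm1. In this contrast 47.3% of the 15375 genes tested passed an adjusted p of 0.05 in limma, 24% higher and 23.3% lower, and all 9 genes were among them by choice. The F2rl2 value depends on the pseudocount, since 3 WT sham libraries had no read. Ranked among the 6686 genes with no overlap between OE and WT sham libraries and no predicted-gene symbol, the 4 higher genes held places 1, 4, 5 and 13 and the 5 lower genes places 2, 4, 7, 8 and 10. Among the genes outside the chosen ones, Ifi27l2b (6.43) and Frem3 (5.95) stood on the higher side and Acsm5 (-4.53) on the lower side. At the edge of the lower list, Lrtm1 with -3.97 was followed by Plk5 with -3.90, a gene of far lower level.

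**Figure D1:**
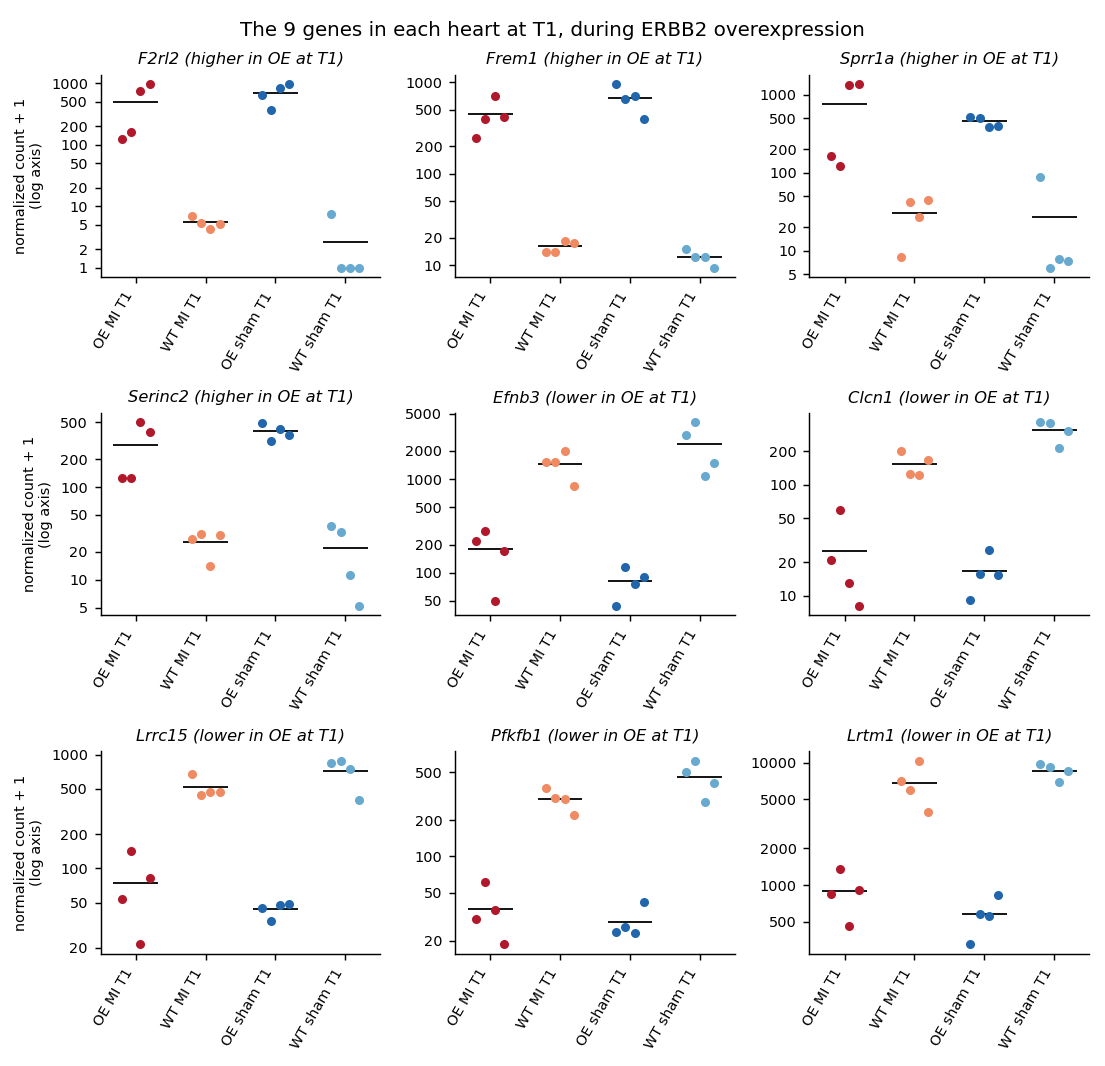
Normalized counts plus 1 (log axis) of the 9 genes in each heart at T1, with OE hearts left of WT hearts for MI and for sham; each point is 1 heart and the bar is the mean of 4. The 4 OE hearts of each pair of groups lie above the WT hearts for F2rl2, Frem1, Sprr1a and Serinc2 and below them for Efnb3, Clcn1, Lrrc15, Pfkfb1 and Lrtm1, and 2 of the 4 OE MI hearts are lower than the other 2 for F2rl2, Sprr1a and Serinc2.

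In the injured hearts at T1, which share no library with the sham hearts, the 9 genes again stood apart in the direction they were chosen for. The share of all genes that stood apart in MI hearts is not given here. The limma fit used below took its spread from all groups at T1, the sham hearts that chose the genes among them. Its standard errors and p-values in MI hearts are therefore not fully independent of the choice. F2rl2 had 123, 160.4, 745 and 988 normalized counts in OE MI hearts, against 5.99, 4.37, 3.25 and 4.19 in WT MI hearts. Frem1 had 248, 401, 709.6 and 421 in OE MI hearts, against 13.2, 13.1, 17.4 and 16.8 in WT MI hearts. F2rl2 was several-fold lower in OE MI replicates 1 and 2 than in 3 and 4, and no OE MI heart overlapped a WT MI heart for either gene. Sprr1a had 162, 121, 1351 and 1387 in OE MI hearts, against 7.19, 41.5, 26.03 and 44.1 in WT MI hearts. Serinc2 had 124, 125, 499 and 386 in OE MI hearts, against 26.4, 30.6, 13.02 and 29.4 in WT MI hearts. Replicates 1 and 2 were the low OE MI hearts for Sprr1a and Serinc2 as well, and still lay above every WT MI heart. Among WT MI hearts the keratinocyte and epithelial sum was highest in replicate 2, at 664, against 79.1 to 183 in the other 3, and its part in the Sprr1a value was not tested.

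Efnb3 had 216, 278, 49.2 and 169.7 normalized counts in OE MI hearts, against 1515, 1531, 1972 and 839 in WT MI hearts. Lrtm1 had 839, 1352, 462 and 912 in OE MI hearts, against 7135, 5982, 10390.4 and 3983 in WT MI hearts. For both, replicate 3 was the lowest OE MI heart and no OE heart reached a WT heart. Clcn1 had 20.1, 57.6, 12.1 and 7.07 in OE MI hearts, against 202, 123, 121 and 167 in WT MI hearts. Lrrc15 had 52.6, 141, 20.4 and 81.3 in OE MI hearts, against 676, 443, 469.7 and 468 in WT MI hearts. Pfkfb1 had 29.4, 60.7, 35.3 and 17.7 in OE MI hearts, against 367, 303, 298 and 221 in WT MI hearts. In WT MI hearts Clcn1 was highest in replicate 1, whose skeletal muscle marker sum was 3109, against 465 to 1523 in the other 3, and the part of such RNA in the Clcn1 values was not tested. OE MI replicate 2 held the highest OE value of all 5 lower genes, Clcn1, Lrrc15, Pfkfb1, Lrtm1 and Efnb3.

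By limma's moderated test over all genes of the table, with Benjamini-Hochberg adjustment, Frem1 rose in OE MI hearts by 4.70 ± 0.29 on the log2 scale (± SE, adjusted p = 5.08e-07). Sprr1a rose by 4.11 ± 0.94 (limma adjusted p = 0.00428). F2rl2 passed the filter on low values only through OE hearts, since no WT heart at T1 was above 6.41. Its filter and its difference were thus not independent. In the same limma fit Pfkfb1 differed by -3.13 ± 0.32 (adjusted p = 9.11e-06), Lrtm1 by -2.96 ± 0.34 (adjusted p = 2.48e-05) and Lrrc15 by -3.07 ± 0.43 (adjusted p = 0.000103). Clcn1 differed by -2.99 ± 0.47 (limma adjusted p = 0.000265) and Efnb3 by -3.21 ± 0.52 (limma adjusted p = 0.000405). Serinc2, whose MI difference was already known when the genes were chosen, is given as a value only, 3.25. Of all 15375 genes, 29.9% passed in this comparison, 14.7% higher and 15.2% lower, beside each chosen gene given here with a p-value. Scaling by library totals moved the median of all genes by 0.27 on the log2 scale at T1 in MI hearts and by 0.29 in sham hearts, and left all 9 directions as they were. With that scaling the calls were 6281 higher and 1143 lower in MI hearts, in place of 2256 and 2344, and 7144 higher and 1789 lower in sham hearts, in place of 3692 and 3579. The summed fibroblast markers ranged from 119002 to 165705 in OE MI hearts, against 57556 to 105192 in WT MI hearts, with 7 of 10 higher, while 7 of 10 cardiomyocyte markers were lower.

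The spread among OE hearts at T1 was not used to choose the genes. Ordered by Erbb2, the 8 OE hearts ran from OE MI replicate 1, with 769 normalized counts of Erbb2, to OE sham replicate 3, with 2436. F2rl2 was at 123, 362 and 160.4 in the 3 hearts with the least Erbb2, and between 643 and 988 in the other 5. Serinc2 was at 124, 315 and 125 in those 3 hearts, and between 366 and 499 in the other 5. Both genes were thus lower in each of the 3 hearts with the least Erbb2 than in any of the others. Sprr1a did not follow this order in sham hearts, where the heart with the least Erbb2 had 510.1. Frem1 did not follow this order either, with 649.6 in that sham heart and 396 in the sham heart next in order. In a limma fit within the 8 hearts with injury as a term, F2rl2 had a slope of 1.41 ± 0.28 per log2 unit of Erbb2 with an adjusted p of 0.532, Sprr1a had a slope of 1.10 ± 0.55 (limma adjusted p = 0.627) and Serinc2 one of 0.80 ± 0.26 (limma adjusted p = 0.549). The slope of Frem1 was 0.34 ± 0.26 (limma adjusted p = 0.748). The slopes of the 5 lower genes lay between -0.62 for Efnb3 and 0.01 for Lrrc15. No gene of 14596 passed in limma (0%), while 1209 had an unadjusted p under 0.05. DESeq2 called 48 genes, F2rl2 among them with an adjusted p of 0.000468, and edgeR called 0. As a description over the same 8 hearts, which share their group and library effects, Pearson r of log2 levels was positive in all 6 pairs of higher genes (0.48 to 0.92) and in all 10 pairs of lower genes (0.29 to 0.91), and negative in all 20 mixed pairs (-0.87 to -0.33).

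**Figure D2:**
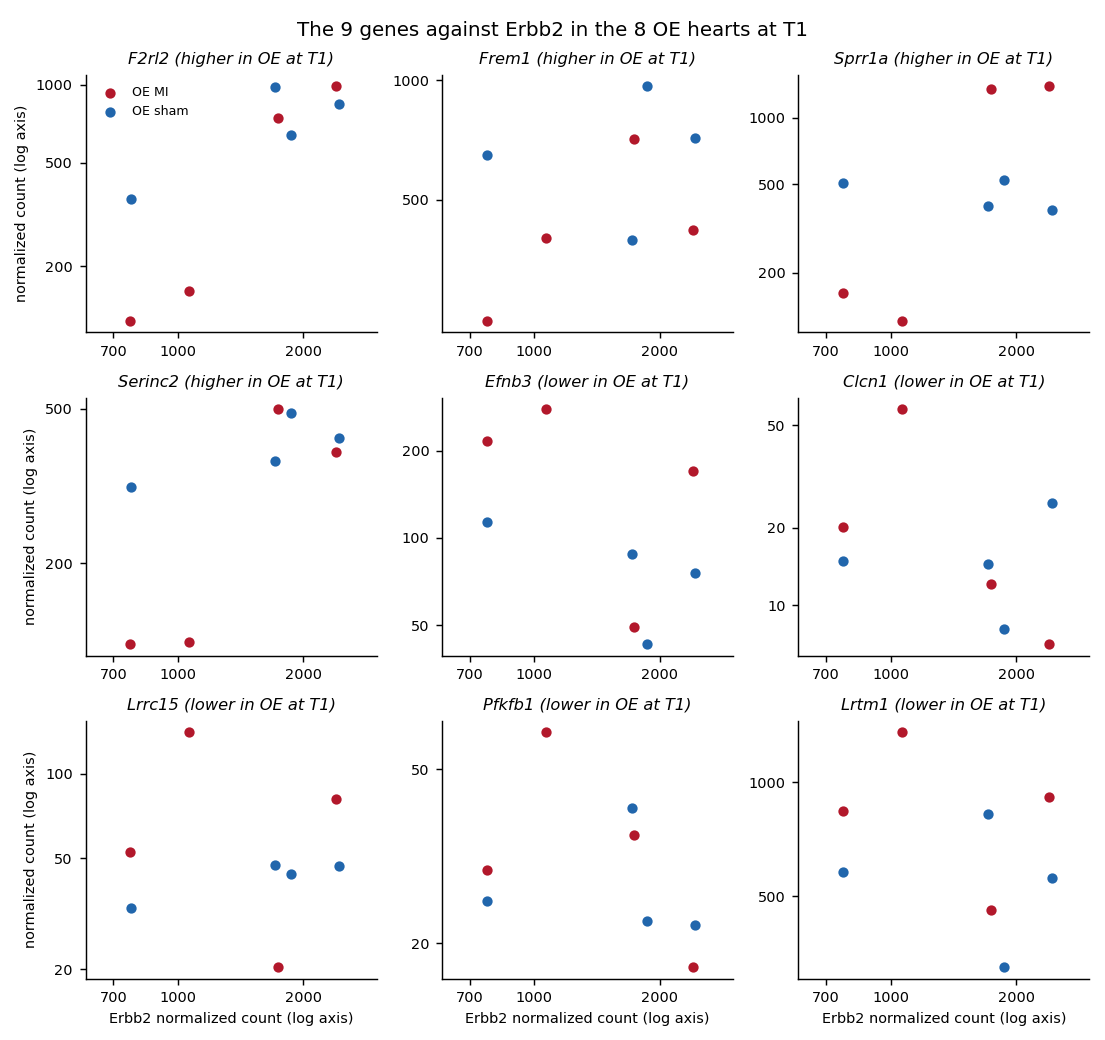
Normalized counts of the 9 genes (vertical, log axis) against those of Erbb2 (horizontal, log axis) in the 8 OE hearts at T1, with MI and sham hearts in different colours; each point is 1 heart. The 3 hearts with the least Erbb2 hold the 3 lowest values of F2rl2 and of Serinc2, whereas Lrrc15 shows no such order.

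At T2, 2 weeks after the overexpression, F2rl2 was back at a handful of reads in every group. F2rl2 had 0, 4.54, 5.92 and 0.85 normalized counts in OE sham hearts, against 1.13, 1.13, 0 and 2.27 in WT sham hearts, and it did not pass the filter on low values at T2 or T3, so it was not tested there. Over all 8 later groups its highest value was 7.30, in a WT MI heart at T2. Sprr1a had 2.89, 0.91, 2.96 and 5.13 in OE sham hearts, against 1.13, 2.27, 3.31 and 6.82 in WT sham hearts. F2rl2 and Sprr1a thus overlapped between OE and WT sham hearts at T2, and the limma difference of Sprr1a was -0.10 ± 0.79 (adjusted p = 0.952). Frem1 had 92.4, 94.4, 79.95 and 105 in OE sham hearts, against 5.66, 11.3, 3.31 and 5.68 in WT sham hearts. Serinc2 had 41.4, 67.2, 31.6 and 27.4 in OE sham hearts, against 3.40, 14.7, 15.5 and 10.2 in WT sham hearts. Frem1 and Serinc2 were still apart at T2 without overlap, Frem1 higher by 3.75 ± 0.40 (limma adjusted p = 3.27e-07) and Serinc2 by 1.93 ± 0.37 (limma adjusted p = 0.000379).

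All 5 lower genes were still lower in OE sham hearts at T2. Lrtm1 had 2863, 2026, 3342 and 2923 normalized counts in OE sham hearts, against 8461, 6199, 6023 and 6965 in WT sham hearts (difference -1.32 ± 0.17, limma adjusted p = 6.88e-06). Lrrc15 had 280.2, 252, 280.3 and 228 in OE sham hearts, against 716, 588, 583 and 569 in WT sham hearts (difference -1.24 ± 0.18, limma adjusted p = 2.11e-05). Relative to its level, Lrrc15 spanned a narrower range than Lrtm1 within each group. Pfkfb1 had 111, 77.2, 105 and 67.5 in OE sham hearts, against 273, 368, 412 and 434 in WT sham hearts (difference -2.04 ± 0.31, limma adjusted p = 4.77e-05). Clcn1 had 89.5, 53.6, 76.00 and 82.9 in OE sham hearts, against 174, 312, 281 and 316 in WT sham hearts (difference -1.82 ± 0.30, limma adjusted p = 9.69e-05). Efnb3 had 1149, 864, 1359 and 946 in OE sham hearts, against 1609.9, 2228, 2406 and 2544 in WT sham hearts (difference -1.03 ± 0.21, limma adjusted p = 0.000972). Pfkfb1 and Clcn1 had the larger differences of the 5, and Efnb3, which had the largest at T1, had the smallest at T2. In all, 7 of the 8 genes tested passed, beside 25.4% of the 15533 genes tested (11.8% higher and 13.6% lower). These 7 calls held when any 1 heart was left out. Scaling by library totals moved the median of all genes by 0.20 in this comparison, gave 5181 higher and 761 lower calls in place of 1834 and 2109, and left the 7 directions as they were. Beside these values, 7 of 10 cardiomyocyte markers were lower and 9 of 10 fibroblast markers higher in OE sham hearts at T2, and their part in the differences was not tested.

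At T3, 4 weeks after the overexpression, 2 of the 8 genes tested still differed between OE and WT sham hearts, beside 13.1% of all genes (6.54% higher and 6.57% lower). Library totals gave 2017 higher and 528 lower calls over all genes in place of 1016 and 1020. Pfkfb1 had 86.03, 159 and 101 normalized counts in OE sham hearts, against 341, 410.5, 443 and 503 in WT sham hearts, and was lower by 1.91 ± 0.34 on the log2 scale (limma adjusted p = 0.000715). Serinc2 had 17.9, 16.8 and 42.6 in OE sham hearts, against 4.57, 8.21, 6.94 and 8.17 in WT sham hearts, and was higher by 1.65 ± 0.40 (limma adjusted p = 0.00769). Neither gene overlapped between the groups, and OE sham replicate 3 held the highest Serinc2 value. Without that heart the Serinc2 difference was 1.23 and its limma adjusted p 0.101. Frem1 had 7.17, 17.9 and 7.84 in OE sham hearts, against 1.14, 5.86, 7.94 and 10.2 in WT sham hearts (limma difference 0.84 ± 0.44, adjusted p = 0.213). Lrtm1 had 5629, 6482 and 4441 in OE sham hearts, against 9225, 5497, 7580.4 and 7266 in WT sham hearts (limma difference -0.42 ± 0.19, adjusted p = 0.144). Both now overlapped between the groups. Lrrc15 had 391, 755 and 506 in OE sham hearts, against 772, 576, 677 and 685 in WT sham hearts (limma difference -0.34 ± 0.19, adjusted p = 0.258). Efnb3 had 1320.3, 2081 and 1093 in OE sham hearts, against 2277, 2070.0, 1744 and 2348 in WT sham hearts (limma difference -0.54 ± 0.23, adjusted p = 0.121). Clcn1 had 169.7, 279.8 and 119.8 in OE sham hearts, against 292, 216, 225 and 243 in WT sham hearts (limma difference -0.44 ± 0.32, adjusted p = 0.405). OE sham replicate 2 was the highest of the 3 OE hearts for all 5 lower genes and lay within the WT sham range for each but Pfkfb1. Without it, Efnb3 (-0.80) and Lrrc15 (-0.60) passed in limma with adjusted p of 0.0241 and 0.0374. Sprr1a had 1.19, 1.12 and 1.12 in OE sham hearts, against 2.29, 5.86, 2.98 and 0 in WT sham hearts, and F2rl2 had 0, 1.12 and 1.12 against 1.14, 1.17, 2.98 and 2.04. Both were within a few reads of 0 in the 2 groups. The summed atrial muscle markers were 2152 to 4067 in the 3 OE sham hearts at T3, against 14498 to 36807 in WT sham hearts, with 5 of 6 markers lower and none at 0, and their part in these differences was not tested.

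The further shrinkage between T2 and T3 in sham hearts was tested directly as the difference of the 2 OE effects, in a comparison where 12.3% of all genes passed in limma (6.19% higher and 6.11% lower). Library totals moved the median of all genes by -0.10 here and gave 297 higher and 1136 lower calls in place of 961 and 949. Frem1 changed by -2.91 ± 0.59 between T2 and T3 (limma adjusted p = 0.00316), Lrtm1 by 0.90 ± 0.25 (limma adjusted p = 0.022), Lrrc15 by 0.89 ± 0.26 (limma adjusted p = 0.0287) and Clcn1 by 1.38 ± 0.44 (limma adjusted p = 0.0415). Each of these 4 changes was toward the WT level. For Pfkfb1 the change was 0.13 ± 0.46 (limma adjusted p = 0.887) and for Serinc2 -0.28 ± 0.55 (limma adjusted p = 0.788), so for these genes no shrinkage was detected between the times. The Frem1 call held without any 1 of the 15 hearts, and the Clcn1 call ended without the filter on low values (limma adjusted p 0.052). The calls of Clcn1, Lrrc15 and Lrtm1 all ended without OE sham replicate 2 of T2 (limma adjusted p 0.0897, 0.0512 and 0.0502), without OE sham replicate 2 of T3 (0.117, 0.0871 and 0.0584) and without WT sham replicate 2 of T3 (0.0767, 0.0629 and 0.0515). Clcn1 also lost its call without OE sham replicate 3 or WT sham replicate 2, 3 or 4 of T2, and without OE sham replicate 1 or WT sham replicate 3 or 4 of T3 (0.0567 to 0.117 over its 10 omissions). Lrrc15 also lost its call without OE sham replicate 4 or WT sham replicate 1 of T2 (0.0512 to 0.0871 over 5), and Lrtm1 without OE sham replicate 1 of T3 (0.0502 to 0.0584 over 4).

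**Figure D3:**
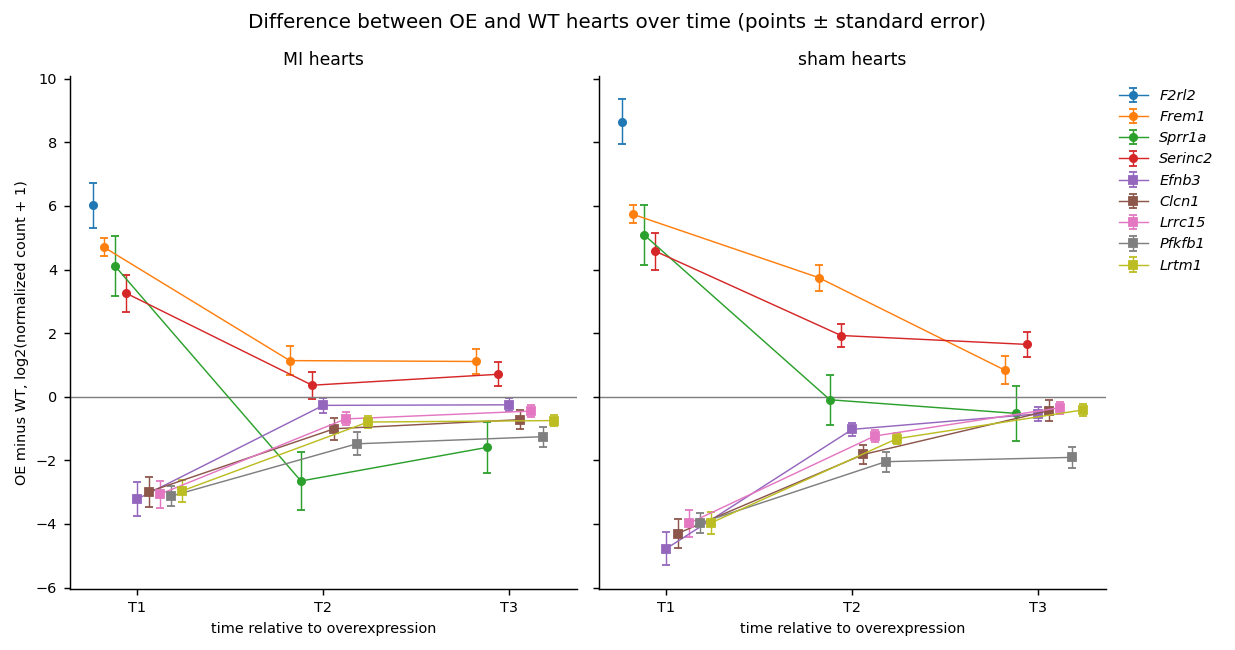
OE minus WT difference in log2(normalized count + 1) with its standard error (vertical) at T1, T2 and T3 (horizontal) in MI hearts (left) and sham hearts (right), from the limma fits; circles are genes higher and squares genes lower in OE sham hearts at T1, and F2rl2 has no later point because it did not pass the filter. T1 and the later times come from separately normalized tables. In sham hearts Pfkfb1 is at -2.04 at T2 and -1.91 at T3, while Frem1 is at 3.75 at T2 and 0.84 at T3.

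In injured hearts at T2, Lrtm1 and Pfkfb1 differed between OE and WT hearts. Lrtm1 had 2727, 3061 and 2636 normalized counts in OE MI hearts, against 5350.3, 4584 and 4693 in WT MI hearts, a difference of -0.80 ± 0.20 (limma adjusted p = 0.0423). Pfkfb1 had 67.96, 63.9 and 87.6 in OE MI hearts, against 86.7, 239 and 407 in WT MI hearts, a difference of -1.48 ± 0.36 (limma adjusted p = 0.0381). Lrtm1 did not overlap between the groups, whereas WT MI replicate 2 fell within the OE range for Pfkfb1. These 2 of 8 genes passed, beside 1.56% of all genes (0.406% higher and 1.15% lower), or 144 higher and 92 lower calls with library totals in place of 63 and 179. The Lrtm1 call rests on all 6 hearts and was lost without any 1 of them (limma adjusted p 0.0759 to 0.157). Pfkfb1 lost its call without any heart but WT MI replicate 2 (limma adjusted p 0.0747 to 0.154). Neither passed with the replicate number as a block (limma adjusted p 0.0722 for Lrtm1 and 0.0571 for Pfkfb1). Pfkfb1 also lost its call when only the 2 groups compared were fitted (limma adjusted p 0.376), and Lrtm1 without the filter on low values (0.053). Beside them, 5 of 8 macrophage markers were lower in OE MI hearts, with a list median of -0.74, and the summed markers ranged from 5999.6 to 6626 in OE MI hearts, against 8993 to 14541 in WT MI hearts. Of 10 skeletal muscle markers 5 were tested, and Atp2a1 (-1.62 ± 0.42, limma adjusted p = 0.047) and Tnni2 (-2.18 ± 0.38, limma adjusted p = 0.00258) were lower. Mylpf (0.83 ± 0.39) and Mybpc2 (0.59 ± 0.27) had the opposite sign and Tnnt3 stood at -0.84 ± 0.47, none of them past the test. The sum over all 10 skeletal muscle markers ranged from 507 to 724 in OE MI hearts, against 341 to 552 in WT MI hearts. No marker of either list was at 0 in these groups, and their part in the results was not tested. Frem1 had 51.2, 41.3 and 54.8 in OE MI hearts, against 17.4, 20.4 and 28.5 in WT MI hearts (limma difference 1.14 ± 0.47, adjusted p = 0.258). Lrrc15 had 217, 351 and 218 in OE MI hearts, against 385, 381 and 485 in WT MI hearts (limma difference -0.70 ± 0.21, adjusted p = 0.0938). Frem1 and Lrrc15 did not overlap between OE and WT MI hearts, yet did not pass the test, and Lrrc15 passed without OE MI replicate 3 (-0.92, limma adjusted p 0.0332). DESeq2 called both Frem1 (1.16, adjusted p = 0.0483) and Lrrc15 (-0.67, adjusted p = 0.0411). Sprr1a had 30.4, 0.98 and 3.54 in OE MI hearts, against 31.04, 75.4 and 27.5 in WT MI hearts (limma difference -2.65 ± 0.92, adjusted p = 0.167). The sign of Sprr1a was opposite to that at T1, and without OE MI replicate 1 its difference was -3.78 with a limma adjusted p of 0.0319. Clcn1 had 40.8, 96.3 and 46.9 in OE MI hearts, against 72.1, 114 and 186 in WT MI hearts (limma adjusted p = 0.167). Serinc2 had 39.98, 23.6 and 38.9 in OE MI hearts, against 28.3, 35.5 and 16.7 in WT MI hearts (limma adjusted p = 0.779). Efnb3 had 1067, 1722 and 1037 in OE MI hearts, against 1108, 1715 and 1763 in WT MI hearts (limma adjusted p = 0.685). These 3 overlapped between OE and WT MI hearts. Both WT MI and OE MI groups had 3 hearts here, so small differences were not detectable.

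At T3 in injured hearts, Pfkfb1 had 119, 82.3, 88.4 and 90.4 normalized counts in OE MI hearts, against 279, 281, 177 and 188 in WT MI hearts, a difference of -1.26 ± 0.31 (limma adjusted p = 0.0255). Lrtm1 had 3231, 4367, 3770.0 and 4086 in OE MI hearts, against 4895, 8293, 5929.5 and 7210.5 in WT MI hearts, a difference of -0.75 ± 0.17 (limma adjusted p = 0.0139). No OE MI heart reached a WT MI heart for either gene, and these 2 of 8 genes passed, beside 3.28% of all genes (1.2% higher and 2.09% lower), or 515 higher and 187 lower calls with library totals in place of 186 and 324. Lrtm1 lost its call without OE MI replicate 1 (limma adjusted p 0.0597) and with only the 2 groups fitted (0.0744), and Pfkfb1 without WT MI replicate 1 or 2 or OE MI replicate 2, 3 or 4 (0.0512 to 0.0858). Frem1 had 44.6, 51.4, 33.7 and 17.6 in OE MI hearts, against 12.1, 11.1, 23.4 and 17.5 in WT MI hearts (limma difference 1.11 ± 0.40, adjusted p = 0.137). Both edgeR (1.21, adjusted p = 0.0438) and DESeq2 (1.21, adjusted p = 0.0109) called Frem1 here. Lrrc15 had 310.5, 305, 333 and 345 in OE MI hearts, against 525, 527, 448 and 307 in WT MI hearts (limma difference -0.45 ± 0.18, adjusted p = 0.18). WT MI replicate 4 was the one WT heart within the OE range of Lrrc15, and without it the difference was -0.63 (limma adjusted p 0.0497). Clcn1 had 110.2, 88.3, 97.5 and 149.9 in OE MI hearts, against 187, 247, 145 and 158 in WT MI hearts (limma adjusted p = 0.206). Efnb3 had 1337, 1216, 1917 and 1374 in OE MI hearts, against 1605, 1721, 1645 and 1903 in WT MI hearts (limma adjusted p = 0.609). Serinc2 had 34.6, 19.7, 21.9 and 34.2 in OE MI hearts, against 23.2, 15.1, 11.2 and 16.6 in WT MI hearts (limma adjusted p = 0.344). These 3 overlapped between the groups. Sprr1a had 20.03, 15.4, 5.47 and 1.10 in OE MI hearts, against 62.1, 5.03, 23.4 and 40.9 in WT MI hearts (limma adjusted p = 0.311). F2rl2 ranged from 0.91 to 3.64 in OE MI hearts and from 0 to 5.62 in WT MI hearts. Between T2 and T3 no gene's OE effect in MI hearts passed in limma (0%), with 551 at an unadjusted p under 0.05, 0 called by edgeR and 2 by DESeq2, and the changes of the 8 genes tested lay between -0.03 for Frem1 and 1.06 for Sprr1a.

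**Figure D4:**
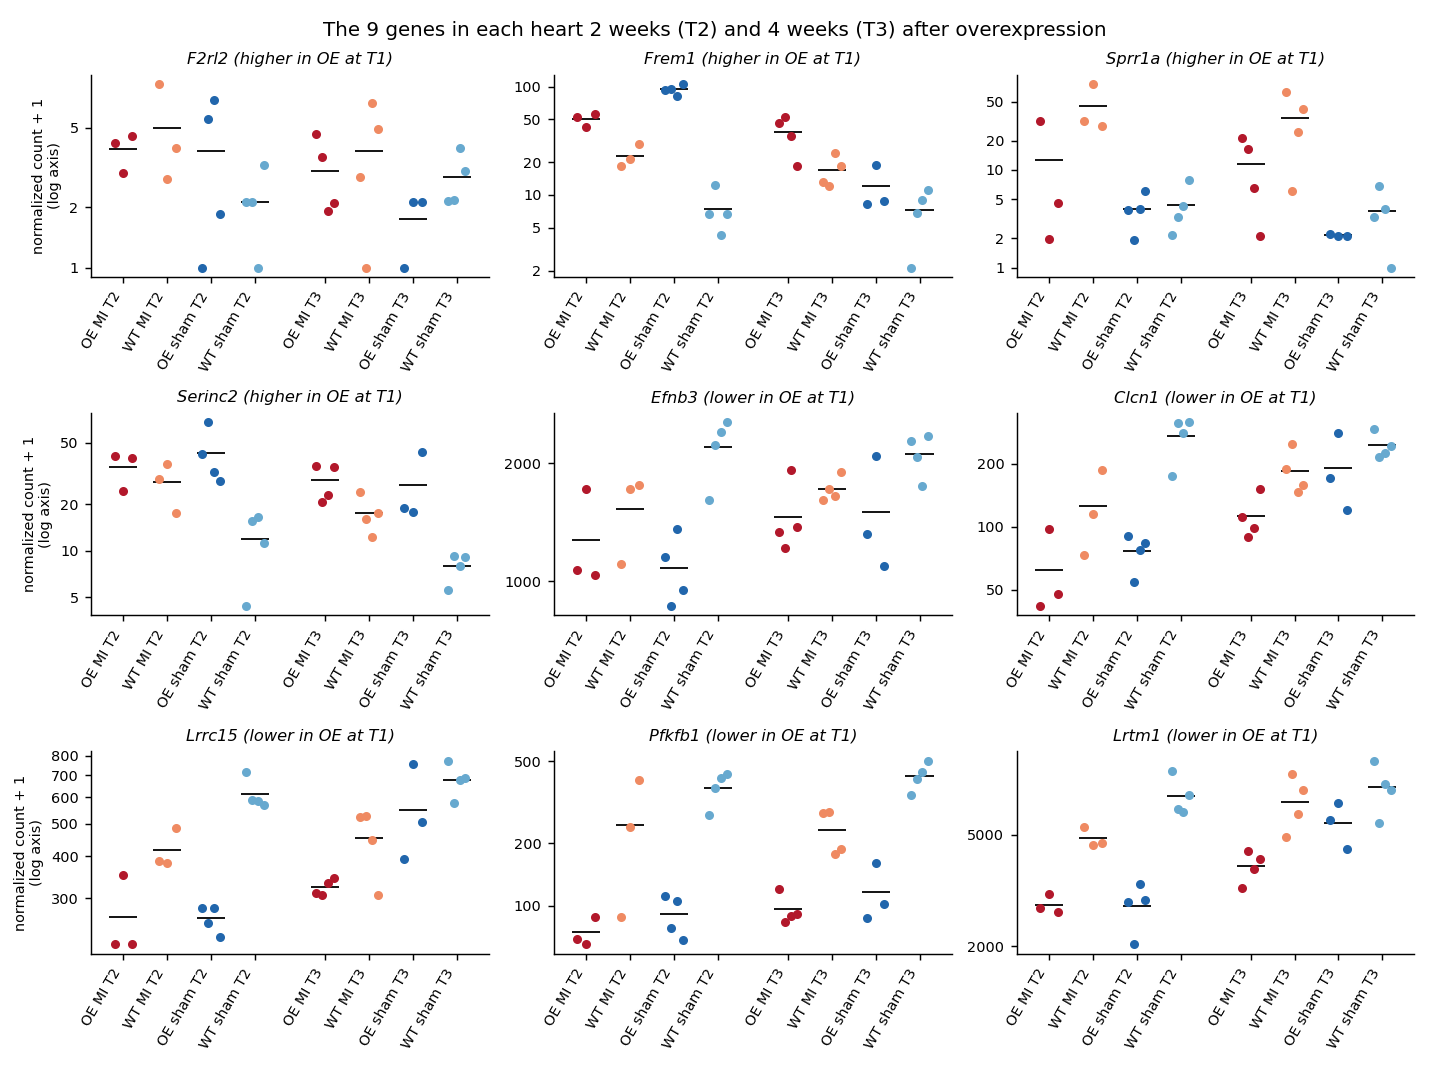
Normalized counts plus 1 (log axis) of the 9 genes in each heart 2 weeks (T2) and 4 weeks (T3) after overexpression, OE hearts left of WT hearts for MI and for sham; each point is 1 heart and the bar is the mean of 3 or 4. Frem1 in OE sham hearts at T2 lies between 79.95 and 105, above all other groups, and Pfkfb1 in OE sham hearts at T3 lies between 86.0 and 159, below the 341 to 503 of WT sham hearts.

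Several of these genes differed between WT MI and WT sham hearts, in comparisons that share libraries with those above. Sprr1a, known to be induced by stress in cardiomyocytes, was higher in WT MI hearts than in WT sham hearts by 3.39 ± 0.86 at T2 and by 3.02 ± 0.79 at T3 (limma adjusted p = 0.00578 and 0.012). Frem1 was higher in WT MI hearts by 1.70 ± 0.44 at T2 and 1.40 ± 0.40 at T3 (limma adjusted p = 0.00631 and 0.0202). Serinc2 was higher by 1.33 ± 0.40 at T2 and 1.12 ± 0.37 at T3 (limma adjusted p = 0.019 and 0.0419). All 3 tested higher genes thus rose with injury in WT hearts. Of the lower genes, Clcn1 differed by -1.18 ± 0.32 (limma adjusted p = 0.0105) and Lrrc15 by -0.56 ± 0.19 (limma adjusted p = 0.0395) in WT MI hearts at T2, and Lrrc15 by -0.61 ± 0.18 (limma adjusted p = 0.0234) at T3. So 5 of 8 genes passed at T2, beside 21.8% of all genes (11.4% higher and 10.4% lower), and 4 of 8 at T3, beside 14.9% of all genes (8.25% higher and 6.67% lower). With library totals the median of all genes moved by 0.12 at T2 and 0.18 at T3, and the calls were 2686 higher and 550 lower at T2, in place of 1766 and 1613, and 3605 higher and 195 lower at T3, in place of 1281 and 1036. Beside these values, all 10 fibroblast markers were higher in WT MI hearts at T2 and 7 of 10 at T3. Their sum ranged from 49342 to 66845 in WT MI hearts at T2, against 22589.8 to 24831 in WT sham hearts, and from 34073 to 47984 against 23349 to 25922 at T3. Of 8 macrophage markers, 2 were higher at T2 and 7 at T3, with sums of 8993 to 14541 in WT MI hearts against 5922 to 8961 in WT sham hearts at T2, and 8818 to 12835 against 5191 to 7521 at T3. No fibroblast or macrophage marker was at 0 in these groups. Of 8 epithelial and keratinocyte markers 4 were tested, none passed at T2 and Krt8 was higher at T3. Their sum was 72.7 to 102 in WT MI hearts against 53.2 to 69.6 in WT sham hearts at T2, and 63.3 to 121 against 53.6 to 66.3 at T3, with Krt5 at 0 in every WT sham heart at both times. Of the 10 cardiomyocyte markers, 8 were lower in WT MI hearts at T2 and 6 at T3, and none was at 0. The part of these markers in the results was not tested. The T2 calls of Frem1 and Sprr1a held without any 1 heart. Serinc2 lost its T2 call without WT sham replicate 1 or WT MI replicate 2 or 3 (limma adjusted p 0.0704 to 0.11), Clcn1 without WT MI replicate 2 (0.101) and Lrrc15 without WT MI replicate 2 or 3 or WT sham replicate 1, 2 or 3 (0.0547 to 0.138). With only the groups compared, Serinc2 (limma adjusted p 0.0997) and Clcn1 (0.0571) lost their T2 calls and Lrtm1 gained one (-0.49, limma adjusted p 0.0292), as it did in DESeq2 (adjusted p 0.0241). Lrrc15 lost its T2 call with library totals (limma adjusted p 0.0689) and with the replicate block (0.0515). Without WT sham replicate 1 Efnb3 passed at T2 (-0.67, limma adjusted p 0.0416), and without WT MI replicate 4 Pfkfb1 did (-1.34, limma adjusted p 0.00378). At T3 Serinc2 lost its call without any heart but WT MI replicate 3 (limma adjusted p 0.0529 to 0.14), Lrrc15 without WT MI replicate 3 or 4 or WT sham replicate 1 or 4 (0.0515 to 0.0983), Sprr1a without WT MI replicate 1 or WT sham replicate 4 (0.0555 to 0.059) and Frem1 without WT MI replicate 3 or WT sham replicate 1 (0.0773 to 0.0972). Without WT MI replicate 2 Pfkfb1 passed at T3 (-0.996, limma adjusted p 0.0466). With only the groups compared, Frem1 (0.0861) and Lrrc15 (0.0522) lost their T3 calls in limma and Pfkfb1 gained one (0.0152), as it did in edgeR (adjusted p 0.0458) and DESeq2 (0.0186). Lrrc15 also lost its T3 call with library totals (limma adjusted p 0.0509), and Serinc2 with a pseudocount of 4 (0.0543), with the replicate block (0.0525) and in edgeR (0.0555).

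Between OE MI and OE sham hearts at T2 none of the 8 genes passed in limma, beside 0.0258% of all genes, which is 4 genes, with 1097 at an unadjusted p under 0.05, 4 called by edgeR and 37 by DESeq2. Frem1 was -0.91 ± 0.44 in OE MI against OE sham hearts at T2 (limma adjusted p = 0.69), the opposite sign to that in WT hearts, and it passed with only the groups compared (limma adjusted p 0.0419). At T3 Frem1 was higher in OE MI hearts by 1.67 ± 0.44 (limma adjusted p = 0.00979) and Lrrc15 differed by -0.72 ± 0.19 (limma adjusted p = 0.0127), 2 of 8 genes beside 19.1% of all genes (11.1% higher and 7.99% lower). Library totals moved the median by 0.16 there and gave 3027 higher and 166 lower calls in place of 1722 and 1241. The T3 call of Frem1 ended without OE sham replicate 1 or 3 (limma adjusted p 0.0592 and 0.0541) and that of Lrrc15 without OE sham replicate 2 (0.097). Without OE MI replicate 4, Sprr1a passed at T3 (2.61, limma adjusted p 0.0283), and without OE sham replicate 3 Lrtm1 did (-0.65, limma adjusted p 0.0434). DESeq2 called both Sprr1a (adjusted p 0.0391) and Lrtm1 (0.0244), and Lrtm1 also passed in limma with only the groups compared (0.0475). At T3, 9 of 10 fibroblast and 7 of 8 macrophage markers were higher in OE MI than in OE sham hearts and none was at 0, with fibroblast sums of 31252 to 52862 against 20892 to 23167 and macrophage sums of 6084 to 9114 against 4106 to 4716, and their part was not tested. Tested as an interaction, the OE effect on Frem1 at T2 was smaller in MI than in sham hearts by 2.61 ± 0.62 on the log2 scale (interaction -2.61, limma adjusted p = 0.0161), the one call among 8 genes beside 4.94% of all genes (2.39% higher and 2.54% lower). Library totals moved the median interaction by -0.13 and gave 71 higher and 635 lower calls in place of 372 and 395. The interaction was negative and past the test for 8 of 10 fibroblast markers too, whose part was not tested. Without OE MI replicate 3 the Frem1 interaction was -2.49 with an adjusted p of 0.0628 in limma. The interaction was -1.56 ± 0.57 for Serinc2 (limma adjusted p = 0.104) and -2.55 ± 1.21 for Sprr1a (limma adjusted p = 0.227), and for the 5 lower genes it lay between 0.52 for Lrtm1 and 0.81 for Clcn1. At T3 none of the 8 genes passed in limma, beside 0.00644% of all genes, which is 1 gene, with 1665 at an unadjusted p under 0.05, 1 called by edgeR and 110 by DESeq2. At T1 the injury differences share the sham libraries that chose the genes and are given as values only: in WT hearts they were -1.01 for Clcn1 and 1.70 for F2rl2, the widest of the 9.

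The order of the group means over the 8 later groups shows the return of each gene. For Pfkfb1 the 4 OE groups were the 4 lowest, with means of 73.1 ± 12.7, 90.01 ± 20.9, 95.1 ± 16.5 and 115 ± 38.5 (SD) in OE MI T2, OE sham T2, OE MI T3 and OE sham T3 hearts, against 231 ± 56.7 to 424 ± 67.5 in the WT groups. The single neighbouring pair in that order without overlap was OE sham T3 and WT MI T3. For Lrtm1 the order began with OE sham T2 (2789 ± 551) and OE MI T2 (2808 ± 224), followed by OE MI T3 (3864 ± 487) and WT MI T2 (4876 ± 415). OE MI T3 overlapped neither of its neighbours, and all later neighbours overlapped. For Lrrc15 the 3 lowest groups were OE sham T2, OE MI T2 and OE MI T3, none of which overlapped the next group, WT MI T2. OE MI T2 overlapped both of the others, while OE sham T2 and OE MI T3 were apart. For Frem1 the highest group, OE sham T2 (92.98 ± 10.3), overlapped no other, and every other neighbouring pair overlapped. Neighbours of F2rl2, Sprr1a, Serinc2, Efnb3 and Clcn1 overlapped throughout. Sprr1a had its 4 highest means in the 4 MI groups, led by WT MI T2 (44.6 ± 26.7), and Serinc2 its lowest in WT sham T3 (6.97 ± 1.71) and WT sham T2 (10.96 ± 5.55). At T1, each gene's 2 OE groups were apart from its 2 WT groups, and Clcn1 was also apart between WT MI and WT sham hearts. In sham hearts the choice fixed the gap between OE and WT. Of the 19432 genes listed, 6686, all without a predicted-gene symbol, had no overlap there. Such a count over all genes is not given here for MI hearts, so the gap in MI hearts has no background beside it.

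Relatives of the 9 genes were counted by family, from lists drawn up with earlier results of these data known. At T1 the counts and medians of a family include any chosen gene in it, which moves them by choice. Those of the protease-activated receptors include F2rl2, which passed the filter only through OE hearts. All 4 protease-activated receptor genes were measured at T1, and 3 of 4 rose in OE MI hearts, with a list median of 1.27 beside 0.01 over all genes, of which 14.7% were higher: F2rl2, F2r (PAR1, the main thrombin receptor, 1.22 ± 0.18, limma adjusted p = 0.000161) and F2rl1 (PAR2, cleaved by trypsin-like proteases, 1.31 ± 0.38, limma adjusted p = 0.017). F2rl3 (PAR4) stood at 0.24 ± 0.30. In OE sham hearts at T2, F2rl1 was higher by 1.45 ± 0.23 (limma adjusted p = 4.92e-05) and F2r by 0.62 ± 0.12 (limma adjusted p = 0.000373), 2 of 3 tested beside 11.8% of all genes higher, and none passed in MI hearts at T2 or in either at T3.

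Of the 7 genes of the FRAS and FREM complex, 3 rose and none fell in OE MI hearts at T1, beside 14.7% of all genes higher and 15.2% lower, with a median of 0.36. They were Frem1, Frem3 (a close relative of Frem1, 4.81 ± 0.76, limma adjusted p = 0.000239) and Grip1 (a scaffold protein that carries the complex to the membrane, 1.13 ± 0.36, limma adjusted p = 0.0269). The mean of Frem3 at T1 was 0.285 normalized counts in WT sham hearts, against 75.8 in OE sham hearts. No WT sham heart therefore helped it past the filter on low values. Frem2 was lower in OE hearts in all 4 later comparisons, by 0.73 ± 0.24 in sham and 1.31 ± 0.28 in MI hearts at T2, and by 1.12 ± 0.26 in sham and 1.40 ± 0.24 in MI hearts at T3 (limma adjusted p = 0.0289, 0.0138, 0.00588 and 0.00143). Fras1 was lower at T3 by 1.11 ± 0.28 in sham and 0.93 ± 0.26 in MI hearts (limma adjusted p = 0.00964 and 0.0456). Grip1 was higher in OE sham hearts at T2 by 1.20 ± 0.39 (limma adjusted p = 0.0234) and lower in OE MI hearts at T3 by 1.42 ± 0.39 (limma adjusted p = 0.0404). Of the 7 genes, 6 were tested at the later times, and Frem3 was not among them.

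Of the 16 small proline-rich genes, Sprr1a alone was high enough to be tested in either table. Of 5 serine incorporators, 4 were tested: beside Serinc2, Serinc1, Serinc3 and Serinc5 lay between -0.11 and 0.13 in OE MI hearts at T1, with a list median of 0.07. Serinc5 passed in OE sham hearts at T2 (0.30 ± 0.09, limma adjusted p = 0.0131) and Serinc1 at T3 (-0.23 ± 0.05, limma adjusted p = 0.0047), both small beside Serinc2.

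Of 22 ephrin and Eph receptor genes, 16 were tested, and 1 rose and 4 fell in OE MI hearts at T1, 5 of 16 beside 29.9% of all genes and so near that share, with a median of -0.17. Epha4, an Eph receptor that binds ephrin-B3 in neurons, was lower in OE hearts by 1.12 ± 0.18 in MI hearts at T1 (limma adjusted p = 0.000327), and by 0.55 ± 0.12 in sham and 0.56 ± 0.14 in MI hearts at T2 (adjusted p in limma 0.00174 and 0.0437). At T3 Epha4 was lower by 0.82 ± 0.13 in sham and 0.66 ± 0.12 in MI hearts (limma adjusted p = 0.000218 and 0.00232), when Efnb3 itself no longer passed. Efnb1, a close relative of Efnb3, differed by -0.28 ± 0.09 in MI hearts at T1 (limma adjusted p = 0.0186) and Efnb2 by 0.05 ± 0.12 (limma adjusted p = 0.804), both far less than Efnb3. Epha2 rose by 0.56 ± 0.19 (limma adjusted p = 0.0393).

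Of 11 CLC channel and transporter genes, 9 were tested. Beside Clcn1, Clcn3 (an intracellular chloride-proton exchanger) was lower in OE MI hearts at T1 (-0.23 ± 0.08, limma adjusted p = 0.0477), and the list's median was 0.07.

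Of 9 genes of fructose 2,6-bisphosphate and phosphofructokinase metabolism, 8 were tested, and 2 rose and 4 fell in OE MI hearts at T1, beside 14.7% of all genes higher and 15.2% lower, with a median of -0.36. Beside Pfkfb1, Pfkfb2 (the heart isoform of the same enzyme, -0.64 ± 0.19, limma adjusted p = 0.019), Pfkm (the muscle phosphofructokinase, -0.80 ± 0.12, limma adjusted p = 0.000154) and Fbp2 (the muscle fructose bisphosphatase, -2.87 ± 0.42, limma adjusted p = 0.000157) were lower. Pfkp (the platelet-type phosphofructokinase, 1.54 ± 0.26, limma adjusted p = 0.000415) and Pfkl (the liver type, 0.50 ± 0.08, limma adjusted p = 0.000353) were higher. At T2 in sham hearts Pfkp was higher by 0.70 ± 0.07 (limma adjusted p = 1.95e-07), and Fbp2 was lower by 1.09 ± 0.25 and Pfkm by 0.28 ± 0.07 (limma adjusted p = 0.00257 and 0.00639). At T3 in sham hearts the differences were -0.04 ± 0.08 for Pfkp, -0.40 ± 0.27 for Fbp2 and -0.06 ± 0.08 for Pfkm, none past the test, beside -1.91 for Pfkfb1, while Pfkl passed (0.47 ± 0.09, limma adjusted p = 0.00117).

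Of 15 leucine-rich repeat genes, 11 were tested at T1, and 1 rose and 6 fell in OE MI hearts, beside 14.7% of all genes higher and 15.2% lower, with a median of -0.73. Of the 6 that fell, 2 were the chosen genes Lrrc15 and Lrtm1. Lrrc39, a sarcomere protein also called myomasp, differed by -0.73 ± 0.15, Lrrc2 by -0.68 ± 0.15 and Lrrc52 by -1.68 ± 0.51 (limma adjusted p = 0.00181, 0.00247 and 0.0206), and Lrrn2 by 0.92 ± 0.20 (limma adjusted p = 0.00247). Lrtm2, the nearest relative of Lrtm1, stood at 0.33 ± 0.71 in MI hearts at T1 and passed in no OE and WT comparison. Of 12 genes of gp130 cytokine signalling, the pathway that induces Sprr1a in cardiomyocytes, 9 were tested at T1, and none rose and 2 fell in OE MI hearts, beside the same shares of all genes, with a median of -0.14. Ctf1, the gp130 ligand cardiotrophin-1, fell by 1.25 ± 0.24 and Lifr, a receptor subunit that pairs with gp130, by 0.64 ± 0.11 (limma adjusted p = 0.000968 and 0.000459). Il6st, which encodes gp130, stood at -0.10 ± 0.08.

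Genes whose log2 levels were most like each of the 9 over the 16 libraries of T1 are named with Pearson r as a description, since the libraries share their groups and the choice of genes fixed the OE and WT split. Lrtm1 was most like Rpl3l (r = 0.99, and 0.68 over the 29 later libraries) and Fitm1 (r = 0.99, and 0.61 later). Efnb3 was most like Rbfox1 (r = 0.98, and 0.85 over the 29 later libraries) and Lrtm1 (r = 0.98, and 0.74 later). Clcn1 was most like Rap1gap2 (r = 0.98, and 0.70 over the 29 later libraries) and Kcna7 (r = 0.98, and 0.68 later). Rpl3l encodes a muscle form of a ribosomal protein, and Kcna7 a potassium channel of muscle. Lrrc15 was most like Rtn2 (r = 0.99, and 0.51 over the 29 later libraries) and Plbd1 (r = 0.98, and 0.81 later). Pfkfb1 was most like Pccb (r = 0.98, and 0.57 over the 29 later libraries) and Tmem143 (r = 0.98, and 0.85 later). The lower genes kept moderate to high r with these partners in the later libraries, where the lowest was 0.51. Frem1 was most like Cyb5r3 (r = 0.99, and 0.70 over the 29 later libraries) and Gnai2 (r = 0.99, and 0.69 later). Serinc2 was most like Chodl (r = 0.98, and 0.64 over the 29 later libraries) and Sardh (r = 0.98, and 0.81 later). F2rl2 was close to Mtmr6 (r = 0.99, and 0.30 over the 29 later libraries), and Sprr1a was most like St14 (r = 0.96, and 0.41 over the 29 later libraries) and Rnh1 (r = 0.96, and -0.03 later). F2rl2 and Sprr1a, which were at a few reads after T1 in sham hearts, had r of 0.41 or less with these T1 partners in the later libraries.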

How the data were processed

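Poly(A) RNA of 45 whole mouse hearts was sequenced, in 16 libraries at T1 and 29 at T2 and T3. Per the submitters' processing notes, cutadapt, STAR, HTSeq and DESeq2 were used with GRCm38, without versions. The deposited values are normalized counts per gene, a signal scaled by the authors within each of the 2 tables. Reads per library, recovered from the steps between low values, were whole within 0.1 reads in each of the 45 libraries, 2 of which had a factor close to 1. Recovered depth was 14199741 to 19015856 reads. No 2 replicates agreed within sampling noise over 63 pairs (lowest chi-square 4.41 per gene).

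The main test was limma 3.58.1 (R 4.3.3; trend, robust) on log2 of the deposited normalized count plus 1, for genes at 10 or more in at least 4 libraries (T1) or 3 (later), fitted over every group of the table. Each p-value was computed here from the deposited values and adjusted by Benjamini-Hochberg over all genes, with 0.05 as threshold. Samples were grouped by their labels. Alternatives were edgeR 4.0.16 and DESeq2 1.42.0 on the recovered reads, library totals, pseudocount 4, no filter, the replicate number as a block, the compared groups alone and each library left out. Scripts were tested on simulated data. The members and gene lists were chosen with earlier results of these data known. Named genes are the 9 members, Erbb2, up to 5 relatives per family list and comparison that passed or share the member's stem, the 2 genes most like each member, and the first 2 genes per direction outside the members. Some genes that this rule names are not reported here.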

Additional observations from a re-analysis of the deposited data

Results flagged for a closer look

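Dixon's test was applied to the 9 genes and Erbb2 in groups of 4 hearts, 90 groups in all, of which chance flags about 1 in 20, and 5 had a heart that stood apart from the others. Sprr1a was at 85.96 normalized counts in WT sham replicate 1 at T1, against 5.07 to 6.82 in the other 3 hearts. F2rl2 was at 6.41 in the same library, against 0 in the others. Lrrc15 was at 675.5 in WT MI replicate 1 at T1, against 443 to 469.7 in the others, and at 716 in WT sham replicate 1 at T2, against 569 to 588 in the others. Pfkfb1 was at 40.8 in OE sham replicate 4 at T1, against 22.02 to 24.9 in the others.

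Differences between OE effects passed in limma for Frem1 and 3 of the lower genes. The OE effect on Frem1 at T2 was lower in MI than in sham hearts (-2.61), and in sham hearts it was lower at T3 than at T2 (-2.91). The OE effect in sham hearts at T3 minus T2 was 1.38 for Clcn1, 0.89 for Lrrc15 and 0.90 for Lrtm1.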

How the results depend on the processing

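No called difference of the 9 genes changed sign under any alternative run. Calls over all genes moved by over 1.5 times as follows. With library totals, OE against WT gave 7424 calls in MI hearts at T1 (main 4600) and 5942 in sham hearts at T2 (3943), and MI against sham 3800 in WT hearts at T3 (2317) and 2 in OE hearts at T2 (4). With DESeq2, OE against WT in MI hearts at T2 gave 452 (242; 4 of the 9 genes in place of 2), MI against sham in OE hearts 37 at T2 (4) and 4 of the 9 genes at T3 (2), the interaction 1230 at T2 (767) and 110 at T3 (1), T3 minus T2 in MI hearts 2 (0) and the Erbb2 slope 48 (0; 1 of the 9 genes). Without the filter, 1 of the 9 genes passed in OE against WT MI hearts at T2. With the compared groups alone, OE against WT gave 54 calls in MI hearts at T2 and 146 at T3 (1 of the 9 genes at each), and MI against sham 1616 in WT hearts at T2, 40 (1 of the 9 genes) in OE hearts at T2 and 1839 at T3, and the interaction at T3 0.

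Same-numbered hearts did not deviate together (r -0.337 to 0.232 over 12 pairs of groups, 0 with every r over 0.1). With the replicate number as a block, 0 of the 9 genes passed in OE against WT MI hearts at T2, and no other count moved by over 1.5 times.

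Leaving out 1 heart at a time gave these lowest and highest counts over all genes. Those among the 9 genes are in brackets, except for OE against WT at T1. OE against WT gave 6291 to 7078 in sham hearts and 3522 to 4973 in MI hearts at T1. It gave 3085 to 3812 (7 to 7) and 69 to 211 (0 to 1) in sham and MI hearts at T2, and 767 to 2069 (1 to 4) and 299 to 598 (1 to 3) at T3. No MI call at T1 that is given above with a p-value ended in these runs. MI against sham gave 2106 to 3340 (2 to 6) in WT and 1 to 10 (0 to 0) in OE hearts at T2, and 1304 to 2654 (1 to 4) and 1538 to 3596 (1 to 3) at T3. The interaction gave 82 to 1045 (0 to 1) at T2 and 1 to 45 (0 to 0) at T3, T3 minus T2 1087 to 1896 (1 to 4) in sham and 0 to 0 (0 to 0) in MI hearts, and the Erbb2 slope 0 to 3 (0 to 0). Groups of 3 or 4 hearts limit what could be detected. After T1, F2rl2 in all groups and Sprr1a in sham hearts and some MI hearts rest on a few reads.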
